A study of Mus musculus with 56 samples.

Results

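The 10 genes described here belong to the Notch pathway and were taken by symbol from a table of 21888 gene symbols measured by RNA-seq in 14 mouse livers. They are the receptors Notch1, Notch2 and Notch3, the ligands Jag1, Jag2 and Dll4, the DNA-binding factor Rbpj, and Hes1, Hey1 and Heyl, which are classical target genes. All 10 symbols were found, and none of them was listed at 0 in any liver. Of the livers, 11 came from mice on a 129Sv/J background with LoxP sites around miR-122, the dominant microRNA of hepatocytes. Of these floxed mice, 3 were uninjected (day 0), 3 were harvested 21 days and 3 45 days after an adeno-associated virus carrying Cre (AAV-Cre), and 1 mouse each was taken at 100 and 200 days. The other 3 livers came from germline miR-122 knockout mice on the same background, for which no Cre injection is given. Cre was driven by the Ef1a promoter, which is active in many cell types, and no mouse received a vector without Cre, so that the effects of the vector and of the loss of miR-122 cannot be told apart. The injected mice were adults when they received Cre, and sex and age in weeks are not given in the sources used here. The 4 comparisons with day 0 share the same 3 uninjected mice.

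Notch receptors sit in the cell membrane and are activated by ligands on a neighbouring cell. Ligand binding exposes the receptor to cleavage, first by an ADAM protease and then by gamma-secretase, and the freed intracellular part joins RBPJ in the nucleus to switch on genes of the Hes and Hey families. In the liver the pathway is best known for its part in bile duct formation, where JAG1 and NOTCH2 are required and where hepatocytes with strong Notch signaling can take on features of biliary cells. Notch1 and Dll4 are prominent in blood vessels, and Notch3 and Heyl in the cells that surround them.

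miR-122 made up 59.2 to 73.3% of the microRNA reads in the 3 uninjected livers. The share was 8.22 to 13.2% at day 21, 0.383 to 1.23% at day 45, and then 4.46% in the day 100 liver and 19.1% in the day 200 liver. The knockout livers have no small RNA library here, and their genotype rests on the labels. Defining hepatocyte transcripts were abundant in all 14 livers, with the 10 hepatocyte markers adding up to between 17100 and 33600 FPKM (fragments of a transcript, scaled for its length and for the size of the library), although Alb was listed at 0 in all 14 and Gapdh at 0.526 to 1.49. Serpina1a, another of the 10 markers, was listed at 0 in 10 of the 11 floxed livers, at 987 FPKM at day 100 and at 1290 to 2040 FPKM in the knockout. The values of such abundant genes are therefore unreliable, and without Serpina1a the sums were 16100 to 31700 FPKM. The knockout mouse named replicate C stood apart from the other 2 knockout mice. With it, 3833 genes differed from day 0, and without it 7088, whereas leaving out replicate A or B gave 1986 and 1630. Knockout results are therefore given with and without replicate C where the call differs.

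Sequences upstream of the transcription start were read from RefSeq (GRCm38.p6) for 7 of the 10 genes and searched for TGGGAA, the core of the RBPJ binding motif, on both strands. Hes1, Hey1 and Heyl had no entry in the set of promoters used here. The core occurs in 21.6% of the 250-base windows of all 32851 promoters and the longer GTGGGAA, which contains it, in 5.42%. Of the 7 genes, Rbpj alone held the core in its window, and no window held the longer form. The window of the first Rbpj start is shown because it carries the core 2 times, on opposite strands, and that of Notch1 because Notch1 was the earliest of the 10 genes to pass the test below. Capitals mark the core motif.
Rbpj, chr5:53590096-53590345, plus strand: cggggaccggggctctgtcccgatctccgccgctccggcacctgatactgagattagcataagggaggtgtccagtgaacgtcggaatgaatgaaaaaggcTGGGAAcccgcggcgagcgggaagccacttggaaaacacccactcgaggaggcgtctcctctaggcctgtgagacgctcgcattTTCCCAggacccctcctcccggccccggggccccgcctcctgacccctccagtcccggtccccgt
Notch1, chr2:26503823-26504072, minus strand: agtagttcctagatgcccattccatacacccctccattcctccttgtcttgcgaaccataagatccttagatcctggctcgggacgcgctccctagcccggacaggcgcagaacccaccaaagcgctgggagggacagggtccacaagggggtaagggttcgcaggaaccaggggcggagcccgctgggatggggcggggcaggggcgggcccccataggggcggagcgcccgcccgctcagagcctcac
The windows of the 7 genes were rich in G and C, from 57.2% in Jag1 to 87.2% in Jag2, against a median of 52.4% over all promoters. They held 14 to 54 CpG dinucleotides, against a median of 6. The motif is a match of letters and not a measured site, and its absence says only that these letters do not occur in the window.

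In uninjected livers the 10 genes spanned a wide range of levels. On the FPKM scale, which is per length, Hes1 was highest with 9.55 ± 4.90 (SD, n = 3 mice), followed by Notch2 with 5.38 ± 0.628, Rbpj with 2.33 ± 0.0944 and Notch1 with 2.2 ± 0.548. Dll4 (1.41 ± 0.194), Jag1 (1.12 ± 0.190) and Heyl (0.573 ± 0.155) were lower, and Hey1 (0.265 ± 0.0858), Notch3 (0.145 ± 0.0797) and Jag2 (0.0157 ± 0.00503) were near the floor. The mice overlapped between Hes1 and Notch2, between Rbpj and Notch1, and between Hey1 and Notch3, and the other neighbours in this order did not overlap. At day 45 Hes1 lay above all other genes in every mouse, and Notch2, Notch1, Rbpj, Jag1 and Heyl followed with each neighbour overlapping the next. Heyl had thus moved from below Dll4 and Jag1 to above Dll4 in all 3 mice. The value of 1 fragment can be read from short genes and was larger in the knockout libraries (0.0425 to 0.0499 FPKM at a length of 1 kb) than in the floxed ones (0.0211 to 0.0331), so that knockout values rest on fewer fragments. Jag2 at day 0 rested on about 2 to 4 fragments per library and Hey1 on about 19 to 37, whereas Notch1 rested on about 814 to 1176.

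**Figure D1:**
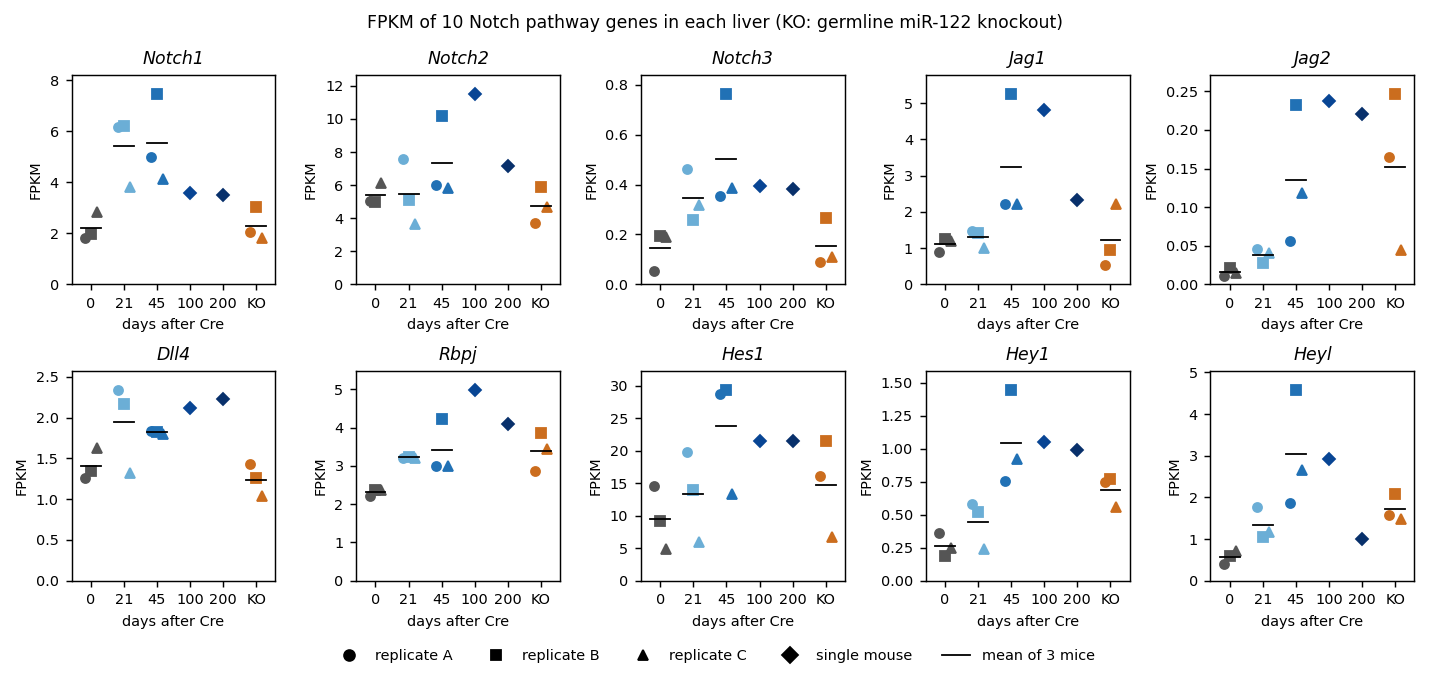
FPKM (y axis, linear from 0, a separate scale for each gene) of the 10 genes in each of the 14 livers, by days after Cre, with KO for the germline knockout. Symbols give the replicate and lines the mean of 3 mice, and Heyl and Hey1 of all 3 day 45 mice lie above all 3 uninjected mice, while Notch1 in the knockout mice (1.81 to 3.03 FPKM) lies in the range of uninjected mice (1.81 to 2.83 FPKM) or just above it.

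Genes were compared on the scale of log2(FPKM + 1) with limma, in 1 fit of all 14 libraries, for the 11354 genes whose mean over the libraries reached 1 FPKM. Notch1, Notch2, Jag1, Dll4, Rbpj, Hes1 and Heyl were tested, and Notch3, Jag2 and Hey1 fell under the limit. Of the 7 tested genes, 1 rose at day 21, 3 at day 45, 2 at days 100 and 200 as 1 group and 1 in the knockout, at an adjusted p under 0.05, and none fell. Among all tested genes the shares that rose were 6.2%, 23.7%, 28.4% and 19.3%, so that 3 of 7 at day 45 was above the background by about 1 gene, and the other counts were within 1 gene of it. Heyl, one of the 3, reached the limit only through livers in which it was high, with a mean of 0.951 FPKM over days 0 and 21 and 1.71 over all 14 livers, so these counts and the medians below are a description. The median change of the 7 genes was 0.34, 0.93, 0.73 and 0.036 in the 4 comparisons, beside 0.061, 0.20, 0.31 and 0.016 for all tested genes. The whole table thus moved up by more than 0.1 at day 45 and later, and changes are also given below after each library was centred on its median. Of all genes called, 88.8% rose at day 45 and 89.8% later, and 70.3% and 67.3% after centring. In bulk liver RNA more cells of a type and more RNA per cell cannot be told apart.

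All 10 genes can be compared by whether the mice of a group lay above every uninjected mouse. This was so for 5 genes at day 21 (Notch1, Notch3, Jag2, Rbpj and Heyl), 8 at day 45 (all but Notch2 and Hes1), 10 at days 100 and 200, and 4 in the knockout (Jag2, Rbpj, Hey1 and Heyl). Among the 14104 genes whose mean reached 0.1 FPKM, 27.6%, 44.8%, 57.6% and 24.4% met the same condition. Jag2 reached that mean only through livers in which it was high. Its day 21 values rest on about 4 to 6 fragments, against 2 to 4 at day 0. With the median shift of each library divided out, the counts were 5, 7, 8 and 4 of 10 beside 24.3%, 34.9%, 42.0% and 23.2%, and none of the 10 lay below all uninjected mice with or without that step. Among the 14104 genes 11.2%, 8.03%, 9.95% and 12% lay below, and 14.6%, 17.0%, 21.9% and 13.8% after it.

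Notch1, the best known of the receptors, had 1.81, 1.97 and 2.83 FPKM at day 0. It measured 6.17, 6.21 and 3.82 FPKM at day 21 and 4.98, 7.47 and 4.12 FPKM at day 45. All 6 of these livers lay above all 3 uninjected ones. The mean FPKM was 2.45-fold that of day 0 at day 21 (log2 change 0.99, SE 0.23, adjusted p = 0.0216) and 2.51-fold at day 45 (1.01, SE 0.23, adjusted p = 0.00631). After centring, the day 45 change was 0.79 with an adjusted p of 0.0167. The call at day 45 held in all 13 alternative settings, and that at day 21 in 8 of 13. The livers of days 100 and 200 had 3.59 and 3.51 FPKM, above day 0 in both mice but not past the test (0.52, 95% interval -0.031 to 1.07, adjusted p = 0.143). After centring this change was 0.21, and with the median shift divided out these livers overlapped day 0. The knockout livers had 2.04, 3.03 and 1.81 FPKM, within or near the range of day 0 (0.036, interval -0.46 to 0.53). All 3 lay below all 3 day 45 livers, and this difference passed the test (-0.97, SE 0.23, adjusted p = 0.0263), as did 8.23% of all genes in that direction. Of all genes called in this comparison 12.8% were higher in the knockout, and 40% after centring, where Notch1 was at -0.79 (adjusted p = 0.0537). It passed without knockout replicate C too (-0.87, adjusted p = 0.0110), where 37.5% of all genes were lower, but not without day 45 replicate B (-0.77, adjusted p = 0.103), day 45 replicate A (-1.02, adjusted p = 0.0577) or knockout replicate A (-0.92, adjusted p = 0.0959). Notch1 lies on chr2:26313422-26359342 (mm9, minus strand), and the annotated genes 0610009E02Rik and Gm13568 overlap it. Without strand in the counting, reads of overlapping genes cannot be told apart.

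Notch2, the receptor required for bile duct formation, measured 5.03, 5.01 and 6.11 FPKM at day 0, and 7.60, 5.11 and 3.68 FPKM at day 21. It had 6.01, 10.1 and 5.85 FPKM at day 45, 11.5 at day 100, 7.17 at day 200, and 3.74, 5.86 and 4.69 in the knockout. The groups overlapped at day 21, at day 45 and in the knockout, and the 95% intervals of the change from day 0 were -0.59 to 0.54, -0.21 to 0.92 and -0.73 to 0.41. Both late livers lay above day 0 without passing the test (0.67, adjusted p = 0.103). After centring the late change was 0.36, and with the median shift divided out the late livers overlapped day 0. Notch2 lies on chr3:97817461-97954290 (mm9, plus strand).

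Notch3, a receptor of mural cells, lies on chr17:32257838-32303797 (mm9, minus strand), where the annotated gene Gm17276 overlaps it. It had 0.053, 0.193 and 0.189 FPKM at day 0, from about 20 to 69 fragments. The level was 0.461, 0.257 and 0.317 FPKM at day 21, 0.356, 0.765 and 0.385 at day 45, then 0.396 and 0.384 in the day 100 and day 200 livers. These 8 livers all lay above day 0. The knockout livers, with 0.090, 0.266 and 0.109 FPKM, overlapped day 0 and lay below all day 45 livers. The same held for Notch1 and Dll4 against day 45, and for 21.8% of the 14104 genes.

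Jag1, the ligand required for bile duct formation, had 0.898, 1.25 and 1.20 FPKM at day 0 and 1.46, 1.42 and 1.01 FPKM at day 21. It was 2.21, 5.26 and 2.23 FPKM at day 45, then 4.81 in the day 100 liver and 2.32 in that of day 200. All 5 livers from day 45 on lay above all 6 livers of days 0 and 21. The mean was 2.90-fold that of day 0 at day 45 (log2 change 0.93, SE 0.31, adjusted p = 0.0451) and 3.20-fold later (1.06, SE 0.35, adjusted p = 0.0364). Both calls were close to the threshold and were lost after centring (0.72, adjusted p = 0.0942, and 0.75, adjusted p = 0.110). Day 45 replicate B held more than 2 times the Jag1 of the other day 45 mice, and without it the change was 0.61 (adjusted p = 0.209). Without the day 100 liver the late change was 0.66 (adjusted p = 0.369). Leaving out any 1 of the uninjected mice also ended both calls, with adjusted p from 0.0859 to 0.130 at day 45 and from 0.0647 to 0.0956 later. The knockout mice differed widely among themselves, with 0.526, 0.952 and 2.23 FPKM in replicates A, B and C. Against day 0 the change was 0.011 (interval -0.67 to 0.69), and without replicate C it was -0.29 (adjusted p = 0.416). Against day 45, Jag1 in the knockout was not past the test (-0.92, adjusted p = 0.0686), and without replicate C it was (-1.22, adjusted p = 0.00537). Jag1 lies on chr2:136907194-136942067 (mm9, minus strand).

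Jag2, a second Jagged ligand, was barely detected. It had 0.011, 0.021 and 0.015 FPKM at day 0, and 0.046, 0.028 and 0.041 at day 21. It measured 0.056, 0.232 and 0.118 FPKM at day 45, 0.237 at day 100, 0.220 at day 200 and 0.165, 0.247 and 0.045 in the knockout. All 8 livers after Cre and all 3 knockout livers lay above the 3 uninjected ones, on about 4 to 35 fragments against 2 to 4.

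Dll4, a ligand of endothelial cells, had 1.26, 1.34 and 1.63 FPKM at day 0 and 2.34, 2.17 and 1.33 at day 21. It measured 1.84, 1.82 and 1.80 FPKM at day 45, 2.12 at day 100, 2.23 at day 200 and 1.43, 1.26 and 1.04 in the knockout. The day 45 and late livers lay above day 0 without passing the test (0.23, adjusted p = 0.309, and 0.40, adjusted p = 0.0907). The late change passed in 1 of 11 alternative settings, the fit of only the libraries of these 2 groups (adjusted p = 0.0487). After centring the changes were 0.016 and 0.087. The 3 knockout livers lay below the 3 day 45 livers (-0.34, adjusted p = 0.128). The annotated gene Gm14207 overlaps Dll4 on chr2:119151520-119161402 (mm9, plus strand).

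Rbpj, the factor through which Notch receptors act on DNA, had closely grouped levels of 2.22, 2.38 and 2.38 FPKM at day 0 and 3.22, 3.24 and 3.21 at day 21. It measured 2.99, 4.23 and 3.00 FPKM at day 45, 4.99 at day 100, 4.10 at day 200 and 2.86, 3.87 and 3.44 in the knockout. All 8 livers after Cre and all 3 knockout livers lay above the uninjected ones. The late rise passed the test, at 1.95-fold (log2 change 0.73, SE 0.16, adjusted p = 0.00426), also after centring (0.42, adjusted p = 0.0383), but not with day 200 as the single late mouse (0.62, adjusted p = 0.0703). The changes at day 21 (0.34, adjusted p = 0.180), at day 45 (0.39, adjusted p = 0.0610) and in the knockout (0.39, adjusted p = 0.0513) did not pass. Without replicate C the knockout change was 0.38 with an adjusted p of 0.0410, and it also passed without replicate A (0.48, adjusted p = 0.0483). Rbpj lies on chr5:53947018-54048684 (mm9, plus strand).

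Hes1, a transcriptional repressor and the best known Notch target, was the most abundant of the 10 genes and had the largest SE among the 7 tested. It had 14.7, 9.12 and 4.89 FPKM at day 0, 19.8, 14.0 and 6.01 at day 21, and 28.7, 29.3 and 13.3 at day 45. It measured 21.5 FPKM in both late livers and 16.2, 21.5 and 6.66 in the knockout. The mouse named C was the lowest in each of the 4 groups with letters. The groups overlapped at day 21, day 45 and in the knockout, and the day 45 change of 1.26 (SE 0.50) did not pass the test (adjusted p = 0.0804). Without day 45 replicate C it was 1.62 (adjusted p = 0.0495). Over 13 alternative settings it ranged from 0.90 to 1.62 and passed in 2, the other being a fit with the replicate letter as a block. Both late livers lay above day 0 (1.20, adjusted p = 0.12). Hes1 lies on chr16:30065443-30067882 (mm9, plus strand).

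Heyl, a repressor of the Hey family, had 0.405, 0.604 and 0.710 FPKM at day 0 and 1.77, 1.05 and 1.16 at day 21. It measured 1.88, 4.58 and 2.67 FPKM at day 45, 2.92 at day 100, 0.993 at day 200 and 1.58, 2.08 and 1.48 in the knockout. All 8 livers after Cre and all 3 knockout livers lay above the 3 uninjected ones, the day 200 liver by the least. The mean was 5.31-fold that of day 0 at day 45 (log2 change 1.31, SE 0.27, adjusted p = 0.00395), and after centring it was 1.1 (adjusted p = 0.00796). The call at day 45 held in all 13 alternative settings, with changes from 1.05 to 2.16, and with no filter on low values its adjusted p was 0.0129. The log2(FPKM + 1) scale understates these folds, since Heyl was under 1 FPKM in every uninjected mouse. In the knockout the mean was 2.99-fold that of day 0 (0.78, SE 0.27, adjusted p = 0.0414). This call held without knockout replicate C (0.85, adjusted p = 0.0289) but was lost with no filter on low values (adjusted p = 0.0889) and without replicate A (0.82, adjusted p = 0.0906), replicate B (0.69, adjusted p = 0.144) or any 1 uninjected mouse (adjusted p from 0.0701 to 0.106). The late change missed the threshold (0.83, adjusted p = 0.0517). It was 1.32 without the day 200 liver and 0.35 without the day 100 liver, each time with 1 late mouse left. Day 21 did not pass (0.56, adjusted p = 0.257). Heyl lies on chr4:122910799-122927113 (mm9, plus strand).

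Hey1, a second Hey repressor, had 0.358, 0.189 and 0.248 FPKM at day 0, and 0.579, 0.519 and 0.242 at day 21, where the groups overlapped. It measured 0.754, 1.45 and 0.926 FPKM at day 45, 1.05 at day 100, 0.988 at day 200 and 0.748, 0.770 and 0.555 in the knockout. All of these later and knockout livers lay above day 0. The mean at day 45 was 3.93-fold that of day 0, and that of the knockout 2.61-fold.

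The 3 low genes were tested together with the other 7 in a second fit of these 14104 genes, on the scale of log2(FPKM + 0.1). On that scale 1 of the 10 genes rose at day 21, 6 at day 45, 5 later and 3 in the knockout, beside 8.47%, 29.4%, 34.6% and 22.3% of all genes. The 6 at day 45 were Notch1, Notch3 (log2 change 1.30, adjusted p = 0.0155), Jag1, Jag2 (0.96, adjusted p = 0.0448), Hey1 (1.63, adjusted p = 0.00216) and Heyl (2.16, adjusted p = 0.00172). The 5 late genes were Jag1, Jag2, Rbpj, Hey1 (1.64, adjusted p = 0.00283) and Heyl, and the 3 in the knockout were Jag2 (1.04, adjusted p = 0.0311), Hey1 (1.13, adjusted p = 0.0163) and Heyl (1.44, adjusted p = 0.0159). All 3 receptors had knockout intervals that included 0, with changes of 0.048 for Notch1, -0.19 for Notch2 and 0.055 for Notch3. Against day 45, both Notch1 and Notch3 (-1.24, adjusted p = 0.0466) were lower in the knockout on this scale, as were 10.1% of all genes, while Hey1 and Heyl did not pass (-0.50, adjusted p = 0.273, and -0.72, adjusted p = 0.213). Jag2 reached the limit of this fit only through livers in which it was high, with a mean of 0.027 FPKM over days 0 and 21 and 0.106 over all livers. With no filter, the day 45 changes of Jag2 (adjusted p = 0.0604) and Jag1 (adjusted p = 0.0921) and the late change of Jag1 (adjusted p = 0.0779) did not pass, nor did Notch3 in the knockout against day 45 (adjusted p = 0.0779). Rbpj then passed at day 45 (0.51, adjusted p = 0.0362) and in the knockout (0.51, adjusted p = 0.0391), which with the filter it did not (adjusted p = 0.0543 and 0.0501). Without knockout replicate C, 4 of the 10 genes rose against day 0, with Rbpj added (0.50, adjusted p = 0.0409), beside 33.7% of all genes. In that setting 3 were lower than at day 45, with Jag1 added (-1.92, adjusted p = 0.00257), beside 34.5%.

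**Figure D2:**
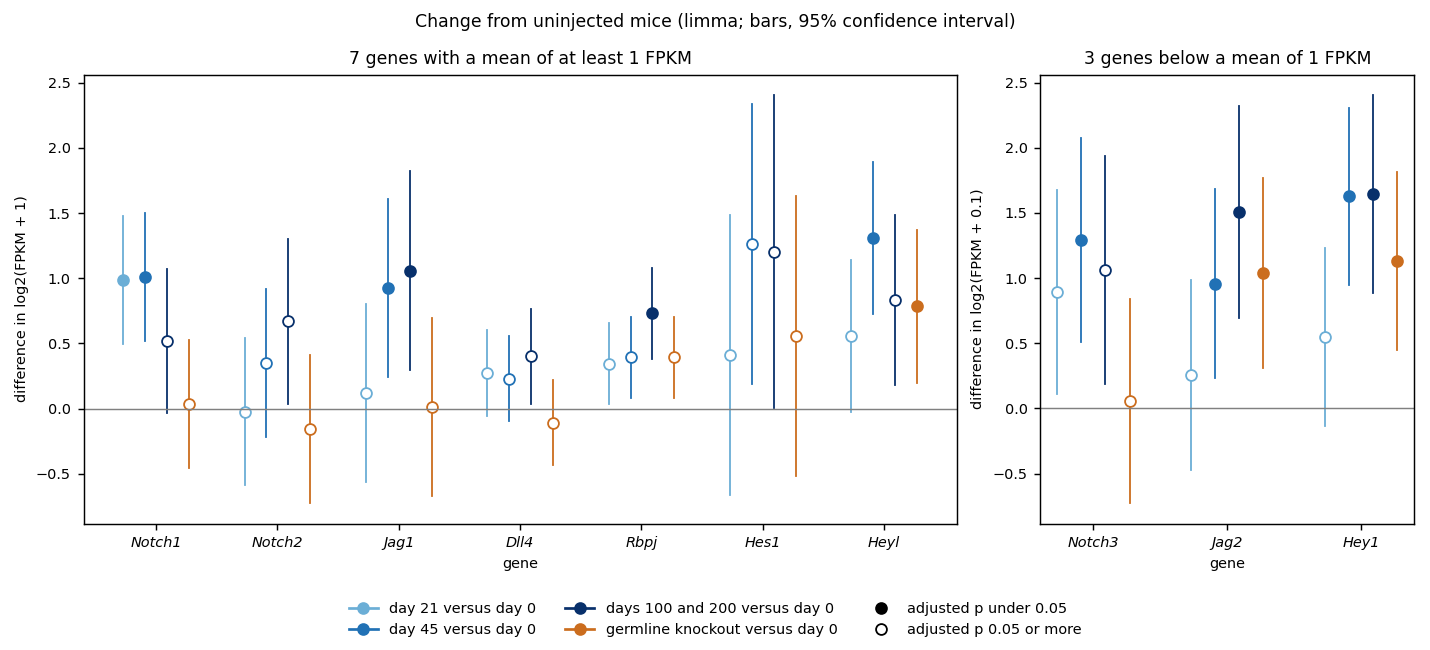
Differences from the 3 uninjected mice in log2(FPKM + 1) for the 7 genes above the limit (left) and in log2(FPKM + 0.1) for the 3 genes below it (right), with 95% confidence intervals from limma and filled symbols for an adjusted p under 0.05. Knockout values (orange) lie near 0 for Notch1, Jag1 and Notch3 and above 0 for Heyl, Hey1 and Jag2.

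Between day 21 and day 45 none of the 7 genes passed the test, whereas 0.273% of all genes did, in either direction. The replicate letter (A, B or C) was also used as a block, in a fit of the 4 groups with letters. The calls among all genes then went from 31 to 1, and again none of the 7 passed. At an unadjusted p under 0.05, 2 of the 7 passed, Jag1 (0.81, adjusted p = 0.232) and Heyl (0.75, adjusted p = 0.205), beside 16% of all genes. Jag1, Jag2, Hey1 and Heyl of the 3 day 45 mice lay above all 3 day 21 mice, as did 29.6% of the 14104 genes. For Notch1 and Rbpj the change over this interval was 0.020 (95% interval -0.47 to 0.51) and 0.049 (-0.26 to 0.36).

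A wider list of 64 other genes of the pathway was examined, of which 51 were tested. Of these, 0 rose and 1 fell at day 21, 14 rose and 1 fell at day 45, 19 rose later, and 10 rose and 2 fell in the knockout. As shares, 0% rose at day 21 beside 6.2% of all genes, and 1.96% fell at day 21 and at day 45 beside 1.42% and 2.99%. Further, 27.5% rose at day 45, 37.3% later and 19.6% in the knockout, beside 23.7%, 28.4% and 19.3% of all genes, and 3.92% fell in the knockout beside 14.5%. Without knockout replicate C, 15 rose and 14 fell there, or 29.4% and 27.5% beside 31.7% and 30.7% of all genes. At day 21, 50 of the 51 did not pass. The median changes were 0.17, 0.35, 0.42 and 0.0018, again beside 0.061, 0.20, 0.31 and 0.016 for all genes. At day 45 the genes that rose included 2 of 5 for receptor glycosylation, 4 of 9 for receptor cleavage, 4 of 14 nuclear co-repressors, 2 of 9 for receptor turnover, 1 of 7 nuclear co-activators and 1 of 5 for ligand uptake, and the last 3 of these shares were under the 23.7% of all genes. Some genes counted as risen were under the limit of 1 FPKM at day 0, such as Maml2 (0.510), Nrarp (0.475), Ctbp2 (0.759) and Mfng (0.863). They reached it only through livers in which they were higher, so these counts and shares are a description.

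Among ligand uptake genes, Neurl3, an E3 ubiquitin ligase of the Neuralized family, had 3.11 to 4.42 FPKM at day 0 and 10.8 to 19.1 at day 45 (log2 change 1.68, adjusted p = 0.00571). It reached 20.2 and 36.4 in the late livers (2.57, adjusted p = 0.000671) and 10.2 to 30.6 in the knockout (2.23, adjusted p = 0.00145). Neurl1a, of the same family, was 0.042 to 0.110 FPKM at day 0, 6.01 at day 100, 3.49 at day 200 and 0.426 to 3.39 in the knockout, with changes of 2.39 (adjusted p = 0.000652) and 1.43 (adjusted p = 0.00897). It reached the limit of 1 FPKM only through those livers, with a mean of 0.0977 FPKM over days 0 and 21, and with no filter the adjusted p were 0.00270 and 0.0282. Dtx3, of the Deltex family of ubiquitin ligases, rose from 1.22 to 1.61 FPKM at day 0 to 3.92 to 8.16 at day 45 (1.48, adjusted p = 0.00425). It was 10.2 and 10.8 FPKM later (2.28, adjusted p = 0.000491) and 3.48 to 10.7 in the knockout (1.77, adjusted p = 0.00189), and F420014N23Rik overlaps it. In the knockout replicate C was the lowest mouse for Neurl3, Neurl1a and Dtx3, and without it the changes were 2.73, 1.94 and 2.19, all past the test.

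Lfng, a Fringe glycosyltransferase that tunes the response of Notch receptors to their ligands, went from 1.50 to 2.14 FPKM at day 0 to 5.02 to 6.35 at day 45 (1.23, adjusted p = 0.00161). Lfng was also higher later (1.30, adjusted p = 0.00143) and in the knockout (0.78, adjusted p = 0.0162), while day 21 did not pass (0.73, adjusted p = 0.0558). Psen2, a catalytic subunit of gamma-secretase, fell from 103 to 133 FPKM at day 0 to 43.4 to 73.1 at day 21 (-1.11, adjusted p = 0.0153) and was 64.1 to 86.8 at day 45 (-0.70, adjusted p = 0.0458). Psen2 did not pass in the late livers (-0.62, adjusted p = 0.0937) or in the knockout (-0.58, adjusted p = 0.0743, and -0.36, adjusted p = 0.173, without replicate C). Tle4, a Groucho-type co-repressor, was 2.77 to 4.08 FPKM at day 0 and 1.14 to 2.24 in the knockout (-0.77, adjusted p = 0.0100), and the call held without replicate C (-0.90, adjusted p = 0.00128). In the 3 comparisons of livers after Cre with day 0, Tle4 did not pass (-0.36, -0.39 and -0.25, adjusted p = 0.300, 0.155 and 0.414).

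**Figure D3:**
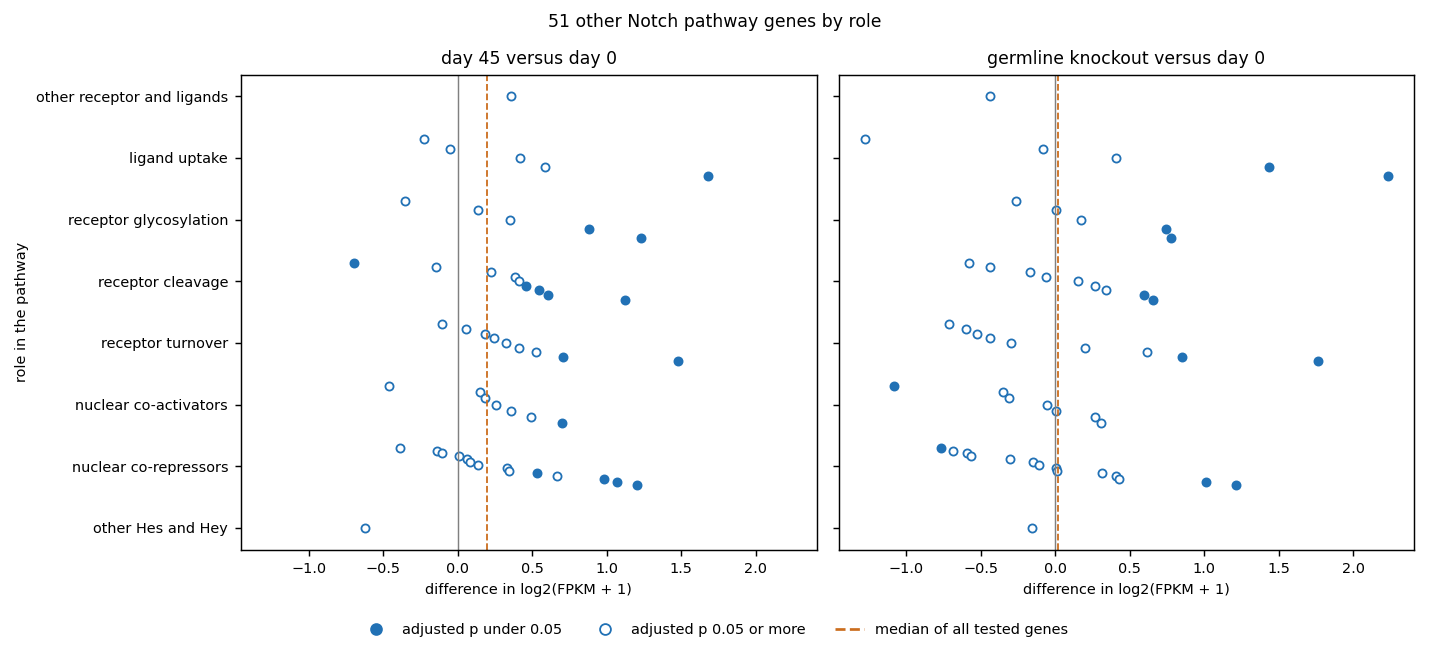
Differences from day 0 in log2(FPKM + 1) for the 51 other pathway genes by role at day 45 (left) and in the knockout (right), 1 point per gene, filled for an adjusted p under 0.05. The dashed line is the median of all tested genes, 0.20 at day 45 and 0.016 in the knockout, and the point furthest to the right in both panels is Neurl3.

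Markers of several cell types other than hepatocytes moved in the same livers. At day 45, 7 of 8 tested cholangiocyte markers, 5 of 10 endothelial, 8 of 9 stellate, fibroblast and mural, 10 of 10 macrophage and 8 of 9 lymphocyte markers rose, while of 9 hepatocyte markers 1 rose and 1 fell, beside 23.7% of all genes that rose and 2.99% that fell. At day 21 the counts that rose were 2, 1, 2, 3 and 7 in the same order, beside 6.2% of all genes, and in the late livers 8, 6, 8, 5 and 8, beside 28.4%. Of the 9 hepatocyte markers 2 fell in the late livers (Apoa1 and G6pc, named after their values were seen), or 22.2% beside 3.21%, and their sums without Serpina1a were 16100 and 24800 FPKM against 28200 to 30700 at day 0. In the knockout they were 7, 1, 5, 4 and 4, beside 19.3%, and the endothelial count was under that share. Without knockout replicate C they were 7, 3, 6, 5 and 6, beside 31.7%. In that setting 2 endothelial markers fell, or 20%, beside 30.7% of all genes. Apart from Alb, no marker of the 6 lists was at 0 in every library. Some counted markers were under the limit of 1 FPKM at day 0, such as Sox9 (0.702), Cldn7 (0.471), Itgam (0.343) and Cd8a (0.096). They reached it only through livers in which they were higher, so the marker counts are a description. The summed endothelial markers, led by Eng and Pecam1, were 40.9 to 80.5 FPKM at day 0, 80.2 to 110 at day 21, 108 to 142 at day 45, 102 to 110 later and 69.2 to 77.4 in the knockout, where they were in the range of day 0. The stellate, fibroblast and mural markers, led by Col3a1 and Vim, went from 40.0 to 55.8 FPKM at day 0 to 97.2 to 114 at day 21 and 139 to 315 at day 45. They were 174 to 277 later and 84.1 to 140 in the knockout. Cholangiocyte markers summed to 52.3 to 67.4 FPKM at day 0, 146 to 210 at day 21, 423 to 1380 at day 45, 1970 to 2980 later and 572 to 860 in the knockout, and were dominated by Spp1. Without Spp1 they were 9.75 to 12.7 FPKM at day 0, 14.9 to 17.0 at day 21, 40.0 to 124 at day 45, 113 to 119 later and 39.2 to 128 in the knockout. Macrophage markers summed to 257 to 464 FPKM at day 0, 639 to 816 at day 21, 906 to 1010 at day 45, 903 to 1080 later and 323 to 864 in the knockout. Lymphocyte markers summed to 6.35 to 13.2, 35.3 to 66.2, 30.5 to 40.9, 37.9 to 51.5 and 14.8 to 30.9 FPKM in the same order. Day 45 replicate B, the highest day 45 liver for 9 of the 10 Notch genes, also had the highest sum of its group for all 5 lists of other cell types and the lowest hepatocyte sum. The values of Notch1 and Heyl without it are 0.80 (adjusted p = 0.0346) and 1.05 (adjusted p = 0.0203). The part of these cells in the levels of the Notch genes was not tested.

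**Figure D4:**
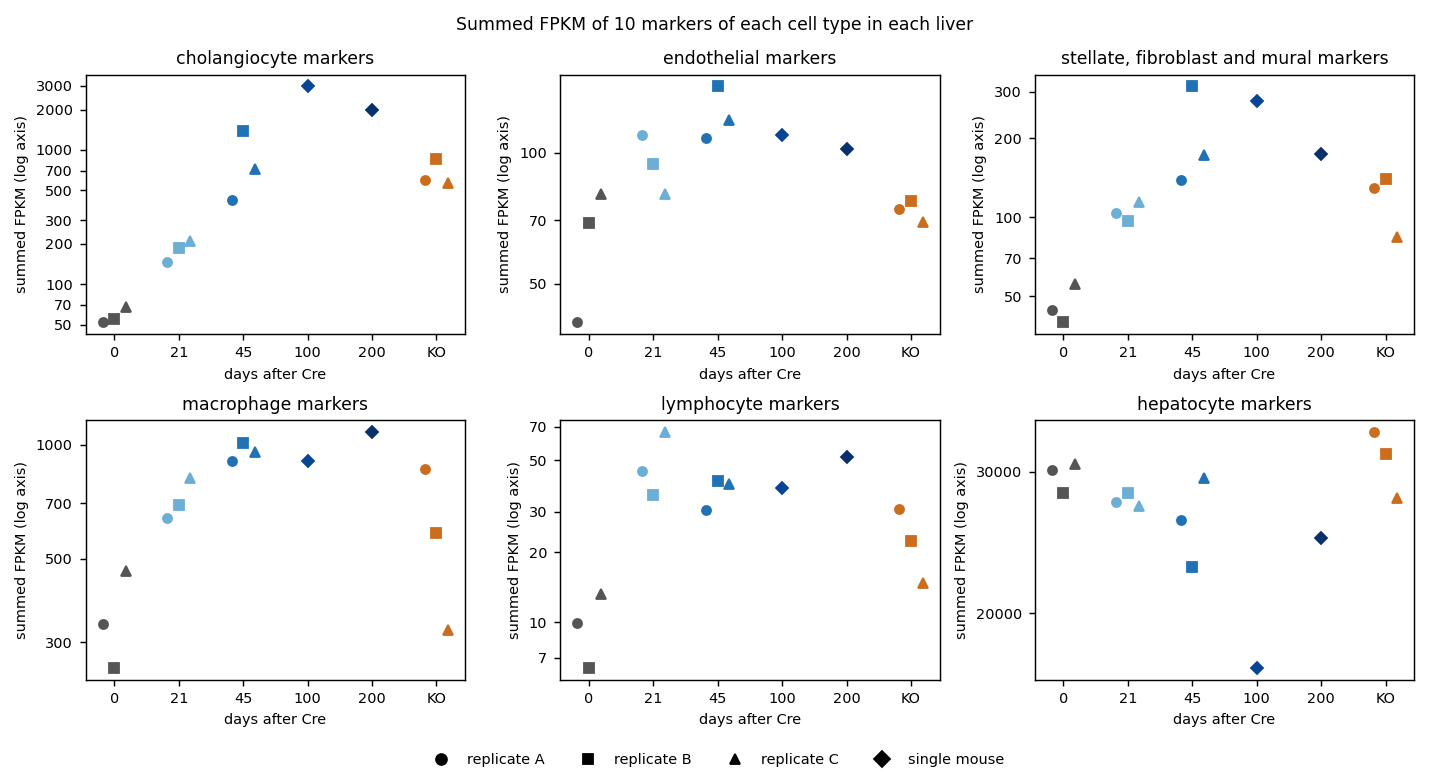
Summed FPKM (log axis) of 10 markers of each of 6 cell types in each of the 14 livers, by days after Cre, with KO for the germline knockout. The endothelial sums of the 3 knockout mice lie between 69.2 and 77.4 FPKM, below all 3 day 45 mice, whereas their cholangiocyte sums of 572 to 860 FPKM lie within the day 45 range.

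For each of the 7 tested genes, the genes whose log2(FPKM + 1) followed it most closely over the 14 libraries were listed as a description. The libraries share groups, scaling and cell makeup, so that high values are common. Notch1 was followed most closely by Sema6d (Pearson r = 0.934), Bank1 (0.926) and Siglec1 (0.910), and Notch2 by Tep1 (0.928), 5730409E04Rik (0.923) and Zfp217 (0.923). Jag1 was nearest to Ror1 (0.973), Ankrd50 (0.965) and Nuak1 (0.954), and Dll4 to Vps8 (0.844), Alg9 (0.831) and Abcg3 (0.821). Rbpj was nearest to Atp11a (0.961), Casp2 (0.960) and Nfkb1 (0.957), Hes1 to Sox18 (0.896), Ntn1 (0.846) and Rab40c (0.842), and Heyl to Tm9sf4 (0.940), Cdr2l (0.934) and Col5a1 (0.933). No Notch gene was among the 3 nearest of another. Among themselves the 7 genes ranged from r = 0.300 between Dll4 and Heyl to 0.832 between Notch2 and Jag1, with 0.739 between Notch1 and Dll4.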

How the data were processed

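Poly-A RNA of 14 livers, 1 library per mouse, was measured by paired-end RNA-seq. The authors aligned reads to the mm9 genome with TopHat and deposited FPKM made with Cufflinks 2.2.1, scaled to the upper quartile, after removing ribosomal, small nucleolar and mitochondrial sequences. For small RNA the authors aligned reads to mouse microRNAs with Bowtie 0.12.7 and deposited RPM with 1 added to each value, which was subtracted before the share of miR-122 was taken. FPKM hold no read numbers, so no count model was fitted. Approximate fragments were read from the smallest steps of genes with 1 transcript, and are estimates.

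The 10 genes, the pathway and marker lists and the tests were chosen with earlier results of these data known. The table has 22308 rows, and where a symbol occurs in several of them (224 symbols) these were added up. limma 3.58.1 in R 4.3.3 (lmFit, contrasts, eBayes with trend) was run on log2(FPKM + 1) in 1 fit of 5 groups, with days 100 and 200 joined, and p-values were adjusted by Benjamini-Hochberg over all genes of a comparison, at a threshold of 0.05. In simulated data for day 45 against day 0 with 200 changed genes among 11354, the fit recovered 0% of the genes altered by log2 0.5, 50.5% at log2 1 and 95% at log2 2, with 0, 7 and 23 false calls, so that changes under log2 1 are often missed. Other pathway genes named are the 3 largest rises and falls past the threshold, against day 0, whose mice did not overlap. Alternatives were another pseudocount, filter, scaling, set of libraries, variance trend and replicate block, and leaving out each library. The letters A, B and C are not said to mark a shared litter, batch or day. Between days 21 and 45 the deviations of mice with the same letter correlated at 0.272, 0.236 and 0.501. For no other 2 groups were all 3 above 0.1, as seen in these same data. The block fit held 1 effect per letter over the 4 groups with letters, so it is not a paired test of days 21 and 45 alone. Counts of mice above day 0 after scaling, marker sums without Spp1 or Serpina1a, the second fit with no filter, and that fit and all list counts without knockout replicate C were added after seeing the data. Starts in the table count from 0 and are printed from 1. Descriptive values used Python 3.11.15 with pandas 2.3.3 and numpy 2.4.6, and plots matplotlib 3.10.9.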

Additional observations from a re-analysis of the deposited data

Results flagged for a closer look

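The change of Notch1 from day 0 differed between the knockout and the day 45 livers. It was 1.01 at day 45 and 0.036 in the knockout on the scale of log2(FPKM + 1), and the difference of -0.972 passed limma's test (adjusted p = 0.0263), with all 3 knockout mice below all 3 day 45 mice. Over 13 alternative settings it ranged from -1.22 to -0.77, with adjusted p from 0.0110 to 0.166, and it passed the test in 8 of them. The summed endothelial markers were 69.2 to 77.4 FPKM in the knockout and 108 to 142 at day 45, the macrophage markers 323 to 864 and 906 to 1010, and the lymphocyte markers 14.8 to 30.9 and 30.5 to 40.9. Between these groups 4 of 10 endothelial, 5 of 10 macrophage and 2 of 9 lymphocyte markers were lower in the knockout by limma's test, as were 1 of 9 stellate, fibroblast and mural and 0 of 8 cholangiocyte markers, beside 8.23% of all genes. At an unadjusted p under 0.05 the counts were 7, 7, 3, 4 and 0 in this order, beside 31.9%, and without knockout replicate C, at an adjusted p, they were 5, 5, 2, 2 and 0, beside 37.5%. The part of these cells in the difference was not tested. The knockout mice differ from the floxed mice in the age at which miR-122 was lost and in the vector, which cannot be told apart.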

How the results depend on the processing

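Of 532 values of single Notch genes under alternative settings, 467 kept their direction and their side of the threshold, 30 were no longer past it, 13 newly passed it, and 22 changed sign, all of genes that were not past the threshold. The causes were not tested. Notch1 and Heyl at day 45 passed in every one of 13 alternatives. With a pseudocount of 0.1, 2 Notch genes passed in the knockout against day 0 beside 4021 of 11354 genes, and 58 of all genes at day 45 against day 21. Jag1 in the knockout against day 0 was then -0.064 and Rbpj in the knockout against day 45 was 0.0010, values also given with the lower filter, and with that filter Rbpj was -0.014 without knockout replicate C. Without a filter, 0 of the Notch genes passed at day 21 and in the knockout against day 0, by limma, and 5480 of all genes later. With a mean of at least 0.1 FPKM and that pseudocount, 6 Notch genes passed at day 45, 5 later, 3 in the knockout and 2 in the knockout against day 45. Of all genes, 1384 then passed at day 21, 145 between days 21 and 45, and 1634 in the knockout against day 45. With median centring 1 Notch gene passed later (2751 of all genes), 2 in the knockout against day 0 (4127 of all genes) and 0 against day 45, and of all genes 15 between days 21 and 45 and 423 in the knockout against day 45. Centring gave -0.022 for Jag1 in the knockout against day 0, -0.12 for Notch1 and -0.094 for Rbpj between days 21 and 45, and 0.18 for Rbpj in the knockout against day 45. With only the libraries of the groups compared, 3 Notch genes passed at day 21 and 0 in the knockout against day 45, and of all genes 1774 at day 21, 1109 in the knockout against day 0, 3 between days 21 and 45, and 63 in the knockout against day 45.

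Apart from days 21 and 45, no 2 groups had all 3 same-letter correlations above 0.1. Over all 18 pairs with the same letter they ranged from -0.447 to 0.501, with 8 above 0.1, and in 12 of 36 cases a library correlated best with its own letter in another group. Each such case offered 3 letters to match. With the letter as a replicate block, 470 of all genes passed at day 21, 1 between days 21 and 45, and 447 in the knockout against day 45. The block moved the Notch genes that passed at day 45 from 3 to 4, with Hes1 at an adjusted p of 0.00426.

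Leaving out 1 library at a time, the Notch genes past the threshold numbered 0 to 1 at day 21, 2 to 4 at day 45, 0 to 3 later, 0 to 2 in the knockout against day 0 and 0 to 2 in the knockout against day 45. With 1 late mouse left, that mouse is assumed to vary like the other groups. All genes called ranged from 243 to 643 at day 21, 1781 to 2741 at day 45, 1626 to 3053 later, 1630 to 7088 in the knockout against day 0, 0 to 180 between days 21 and 45, and 231 to 5922 in the knockout against day 45. Signs changed in these ranges for Notch2 at day 21 (-0.25 to 0.19), for Notch1 (-0.12 to 0.17) and Jag1 (-0.29 to 0.25) in the knockout against day 0, for Notch1 (-0.19 to 0.18), Dll4 (-0.20 to 0.056) and Rbpj (-0.080 to 0.11) between days 21 and 45, and for Rbpj in the knockout against day 45 (-0.078 to 0.13). Depth limits Jag2, Notch3 and Hey1 most, whose day 0 values rest on at most about 69 fragments per library.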
